A study of Homo sapiens with 24 samples.

Results

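The genes described here are 39 genes of protein folding and quality control in the endoplasmic reticulum (ER), listed by name for their roles, with earlier results of these data known. Of these, 23 encode chaperones and folding enzymes, 9 encode parts of ER-associated degradation (ERAD), and 7 encode sensors and membrane or transcription factors of the unfolded protein response (UPR). The tables listed 14406 genes in all, and 13526 of them in each of the 3 lines. All 39 members were listed and passed the filter on low counts in every line. ERO1L and ERO1LB were written there under their newer symbols, ERO1A and ERO1B.

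Proteins that enter the secretory pathway fold in the ER with the help of chaperones, lectins and disulfide isomerases, and chains that fail to fold are pulled back to the cytosol and degraded by ERAD. When unfolded chains accumulate, the sensors ERN1 (IRE1), EIF2AK3 (PERK) and ATF6 start the UPR, in which the spliced XBP1 mRNA and the cleaved ATF6 protein yield factors that raise transcription of chaperone and ERAD genes. Pancreatic acinar cells secrete large amounts of digestive enzymes and have an extensive ER, and MIST1 (BHLHA15) and PTF1a are basic helix-loop-helix factors of that cell type. Splicing of XBP1, cleavage of ATF6 and phosphorylation of either kinase cannot be seen in gene counts, so the values here are transcript levels only.

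Polyadenylated RNA was sequenced from 3 stable derivatives of Panc-1, an established human pancreatic ductal carcinoma line grown here in serum depleted of tetracycline. Tet-One cells carried the empty plasmid, Tet-MIST1 cells the rat MIST1 open reading frame and Tet-PTF1a cells the mouse PTF1a open reading frame, both with a myc tag. The promoter of the plasmid is regulated by doxycycline (Dox). Each line gave 4 biological replicates without Dox (Control) and 4 after 72 h with 1 µg/ml Dox, at passage 32 for Tet-One and Tet-PTF1a and passage 33 for Tet-MIST1. With 1 line per construct, an effect of the factor and a property of the line cannot be told apart except through Control cells of the same line and through Tet-One.

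Libraries held 17210989 to 43018494 counted reads. Those of Tet-PTF1a varied most, from 18078331 to 43018494 in Control and from 17210989 to 32383375 in Dox. No library of the other lines held fewer than 33402628. The raw counts that follow are not scaled for this. In Tet-PTF1a the human PTF1A locus had 0 to 2 counts in Control and 53 to 168 in Dox libraries, and these can include mouse transgene reads that aligned to it. BHLHA15, the human MIST1 gene, was listed in Tet-PTF1a only, with 2 to 16 counts in Control and 12 to 22 in Dox, so the rat transgene could not be checked in Tet-MIST1. All 6 epithelial markers looked for were listed in every line. Of 9 acinar markers only the trypsinogen gene PRSS1 was listed, and in Tet-PTF1a alone, at 0.0262 to 0.0943 CPM (counts scaled to the size of the library) in Control and 2.81 to 3.47 in Dox. In RNA from whole cultures, fewer cells that express a gene and less RNA per cell cannot be told apart.

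A pair of libraries stood apart and touch the results below. In Tet-One Dox replicate 1, the level of a gene differed from its average in Dox replicates 2 to 4 by a median of 0.39 on the log2 scale, against 0.07 in each Tet-One Control library, and the deviation ran with exon length (Spearman's rho −0.70 across 13428 genes). Tet-MIST1 Dox replicate 1 deviated by a median of 0.16, also with exon length (rho −0.60 across 13623 genes). Of the 39 members, 36 deviated in the same direction in both libraries, as did 85.5% of 13172 genes. XBP1 lay 0.66 above the other Dox libraries in Tet-One and 0.12 above them in Tet-MIST1, and ERN1 lay 2.16 and 1.25 below them. Several results are therefore given with and without these libraries, and the cause of the deviation was not tested.

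Per length of transcript, the abundant members were folding genes. In RPKM, which divides counts by library size and exon length, over the Control libraries, CALR (calreticulin, a lectin chaperone that binds calcium) was the highest member of each line, at 540 ± 22.9 for Tet-One, 464 ± 10.8 for Tet-MIST1 and 479 ± 11.8 for Tet-PTF1a (SD, n = 4). P4HB (protein disulfide isomerase) ranked next with 414 ± 22.3, 221 ± 4.95 and 331 ± 3.73 RPKM in the same order of lines. The sensors were far lower. ERN1 had 1.32 ± 0.231, 1.26 ± 0.186 and 1.84 ± 0.364 RPKM, and EIF2AK3 had 4.03 ± 0.249, 3.59 ± 0.130 and 5.99 ± 0.321 RPKM. XBP1 was the highest of the sensor group at 33.7 ± 3.69, 19.1 ± 0.745 and 27.8 ± 3.50 RPKM. ERO1LB, an oxidase that recharges disulfide isomerases and is abundant in pancreas, differed between the lines before any Dox, with 0.823 ± 0.0773 RPKM for Tet-One, 3.35 ± 0.0929 for Tet-MIST1 and 4.92 ± 0.260 for Tet-PTF1a. These levels across lines rest on a joint scaling of 3 separately filtered tables and were not tested.

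**Figure D1:**
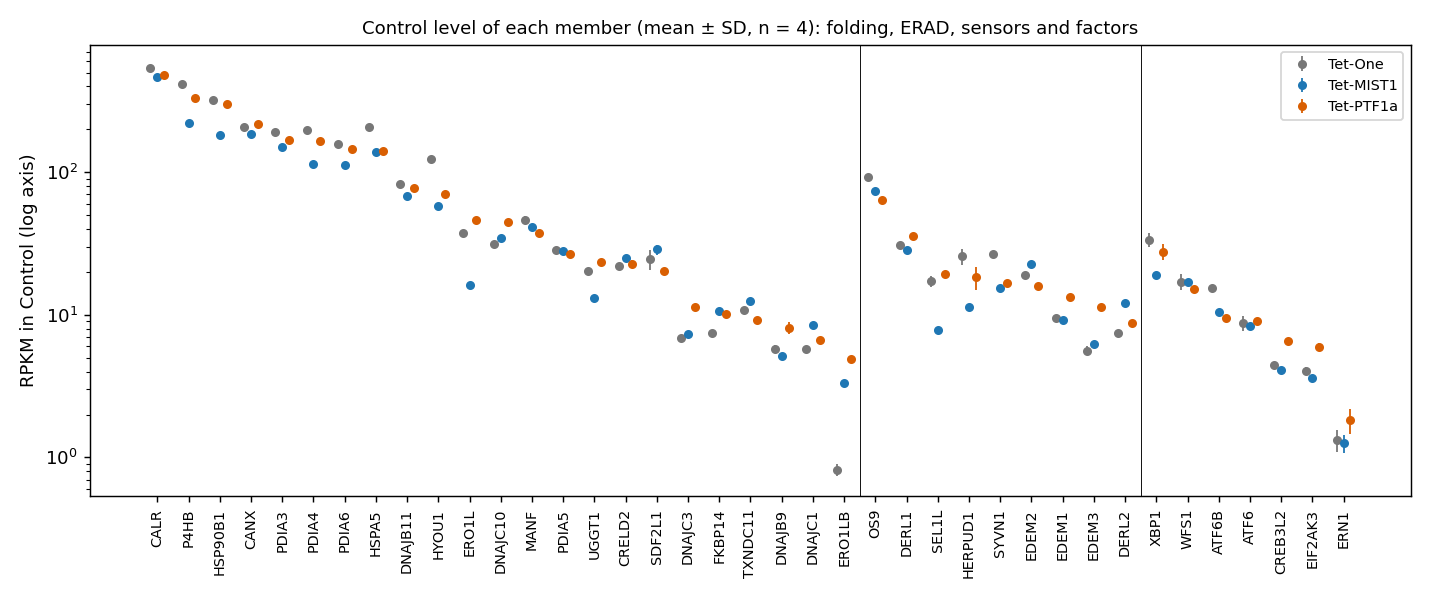
Control level of each member in RPKM (log axis) as mean ± SD of 4 libraries, in Tet-One (grey), Tet-MIST1 (blue) and Tet-PTF1a (orange), grouped as folding, ERAD and sensor genes. CALR was highest in each line, and ERO1LB in Tet-One, at 0.823, was the lowest value of all.

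Some of these genes carry response elements of the UPR before their start sites. The ER stress element (ERSE) is CCAAT, any 9 bases, then CCACG, and ERSE-II is ATTGG, any 1 base, then CCACG. Both strands of the RefSeq windows (build GRCh38.p14, 250 bases before to 50 after the start) were searched for them. Windows were found for 35 of the 39 members, and none for DNAJC1, PDIA3, FKBP14 and DERL1. ERSE was found in 8 of these 35 (22.9%: HSPA5, HSP90B1, CALR, CANX, PDIA6, CRELD2, ERO1LB and XBP1) against 0.0916% of 27305 genes, and ERSE-II in 3 (8.57%: HYOU1, HERPUD1 and SDF2L1) against 0.0696%. TGACGTGG, the core of the UPR element, was found in DNAJC10, TXNDC11 and HYOU1 (8.57% against 0.927%), and in HYOU1 it overlapped an ERSE-II. MIST1 and PTF1a bind E boxes. The E box CAGCTG was found in 7 members (20%, against 21.1% of all genes) and the E box CATCTG in 5 (14.3%, against 17.5%). A match describes letters in a window and does not show binding. The members were listed by name for their roles in the ER, so these shares describe the list and test nothing.

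The stretches below are shown because they belong to members whose levels in every library follow, and HYOU1 was added to them after its values were seen. Only bases before the start are printed, 5′ to 3′ on the strand of the gene, with ERSE, ERSE-II and CAGCTG in capitals. An element written CGTGG first lies on the opposite strand. HSPA5 held a CAGCTG and an ERSE, HSP90B1 an ERSE on each strand, ERO1LB and XBP1 an ERSE, CREB3L2 a CAGCTG at either end of the stretch, HERPUD1 an ERSE-II and HYOU1 a pair of them.
HSPA5, chr9:125241366-125241547 (minus strand, bases −204 to −23): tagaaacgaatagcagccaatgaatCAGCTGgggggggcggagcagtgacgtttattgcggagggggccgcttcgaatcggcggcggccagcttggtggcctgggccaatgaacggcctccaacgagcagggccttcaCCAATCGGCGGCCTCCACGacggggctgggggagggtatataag
HSP90B1, chr12:103930191-103930364 (plus strand, bases −219 to −46): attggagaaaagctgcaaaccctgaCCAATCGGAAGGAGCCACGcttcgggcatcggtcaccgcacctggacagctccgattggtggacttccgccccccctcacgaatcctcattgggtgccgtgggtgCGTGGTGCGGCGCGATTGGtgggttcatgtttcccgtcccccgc
ERO1LB, chr1:236282158-236282208 (minus strand, bases −250 to −200): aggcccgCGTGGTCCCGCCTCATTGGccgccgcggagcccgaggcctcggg
XBP1, chr22:28800578-28800646 (minus strand, bases −77 to −9): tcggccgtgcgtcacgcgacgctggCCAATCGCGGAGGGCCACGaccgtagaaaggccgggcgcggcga
CREB3L2, chr7:138002087-138002336 (minus strand, bases −250 to −1): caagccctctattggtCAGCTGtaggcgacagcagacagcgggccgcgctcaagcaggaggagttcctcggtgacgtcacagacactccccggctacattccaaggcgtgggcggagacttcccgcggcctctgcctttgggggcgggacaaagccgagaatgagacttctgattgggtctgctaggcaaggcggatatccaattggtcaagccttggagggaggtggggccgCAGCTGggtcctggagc
HERPUD1, chr16:56932000-56932060 (plus strand, bases −142 to −82): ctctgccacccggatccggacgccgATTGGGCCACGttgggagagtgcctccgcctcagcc
HYOU1, chr11:119057249-119057415 (minus strand, bases −210 to −44): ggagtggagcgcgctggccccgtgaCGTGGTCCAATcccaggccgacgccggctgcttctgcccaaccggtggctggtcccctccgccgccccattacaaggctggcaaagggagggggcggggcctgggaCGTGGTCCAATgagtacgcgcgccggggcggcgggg

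In Tet-One, the line with the empty plasmid, none of the 39 members was called with Dox, and none of 13428 genes was (0% called, Benjamini-Hochberg FDR under 0.05 in edgeR's quasi-likelihood test). An unadjusted p under 0.05 was reached by 401 genes (2.99%) and by 1 member, ERO1L, which was lower. DESeq2 called 0 members as well. The median change of the members was −0.08 on the log2 scale, against 0.0039 over all genes tested. The smallest FDR of a member was 0.897. For no member did all Dox libraries lie above all Control libraries (1.35% of all genes) or below them (1.06%).

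HSPA5 (BiP), the main ER chaperone of the HSP70 family, had 844, 768, 802 and 745 CPM in Control and 885, 682, 655 and 683 in Dox libraries. Dox replicate 1 was above every Control library and the other Dox libraries were below every one of them. XBP1 had 66.6, 52.0, 60.8 and 56.2 CPM in Control and 77.7, 48.1, 48.5 and 51.1 in Dox, the same arrangement. Without Dox replicate 1 the change of HSPA5 was −0.23 ± 0.04 (SE, FDR = 0.0879) and that of XBP1 −0.26 ± 0.07 (FDR = 0.210). Neither passed the threshold, and still no member did (0.00746% of 13407 genes called), but 9 members were lower and 0 higher at an unadjusted p under 0.05, where 12.2% of all genes reached that limit in either direction. All 3 remaining Dox libraries lay below all Control libraries for 7 members (17.9%), against 5% of all genes, and above them for 0 members, against 6.11%. Of the 23 folding genes, 22 had a change below 0 in that fit, against 6824 of 13407 genes tested. The median change of the 39 members was −0.06.

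In Tet-MIST1, 11 members were called with Dox (28.2%, against 20.6% of 13623 genes). Of these, 10 rose (25.6%, against 11.9% called higher) and 1 fell (2.56%, against 8.77% called lower). The median change was 0.10, against −0.0036 over all genes. The risers came from each group: DNAJC1, FKBP14, ERO1LB, P4HB and DNAJB9 of the folding genes, DERL2, HERPUD1, SYVN1 and OS9 of the ERAD genes, and EIF2AK3 of the sensors. The rises were small, 1.30-fold at most. All 4 Dox libraries lay above all 4 Control libraries for 14 members (35.9%), against 14.1% of all genes, and below them for 1 member (2.56%), against 12.9%. The summed level of the 6 epithelial markers lay between 1661 and 1789 CPM in Control and 1640 and 2114 in Dox libraries of this line, that of CD14 and CD68 between 253 and 260 and between 202 and 243, and that of PDGFRB and COL1A1 between 63.6 and 69.4 and between 65.1 and 78.5. Their part in the results was not tested.

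The largest rise in Tet-MIST1 was that of DNAJC1, a J protein of the ER membrane that works with BiP (hg19 chr10:22045477-22292650, minus strand). DNAJC1 had 17.7, 18.6, 17.6 and 17.5 CPM in Control and 23.7, 21.2, 24.1 and 23.9 in Dox libraries. The groups did not overlap, and the change was 0.38 ± 0.06 (FDR = 0.000825). FKBP14, a prolyl isomerase that folds collagens, had 54.7, 55.9, 57.0 and 53.8 CPM in Control and 66.1, 73.5, 72.2 and 67.6 in Dox, without overlap, a change of 0.33 ± 0.05 (FDR = 0.000797). ERO1LB had 16.6, 17.6, 16.8 and 17.3 CPM in Control and 23.1, 21.7, 21.5 and 19.3 in Dox, again without overlap, a change of 0.33 ± 0.06 (FDR = 0.00335). P4HB, the abundant disulfide isomerase, had 586, 558, 568 and 584 CPM in Control and 662, 670, 666 and 706 in Dox, all above Control, a change of 0.24 ± 0.04 (FDR = 0.00290). DNAJB9 (ERdj4), a J protein that is itself a well-known UPR gene, rose by 0.23 ± 0.07 (FDR = 0.0347), and its call held in 2 of 8 fits that left out a library. DNAJC10 (ERdj5), a J protein that reduces disulfides on the way to degradation, was the member that fell. It had 238, 240, 236 and 241 CPM in Control and 202, 214, 218 and 210 in Dox, without overlap, a change of −0.18 ± 0.04 (FDR = 0.0104), and its call was lost with the trend of exon length removed (FDR = 0.198).

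The chaperones HSPA5 and HSP90B1 did not pass the threshold in Tet-MIST1. HSPA5 had 547, 573, 529 and 579 CPM in Control and 643, 571, 626 and 627 in Dox, a change of 0.15 ± 0.05 (FDR = 0.0575). Dox replicate 2 lay inside the Control range and the other Dox libraries above it. HSP90B1 (GRP94), the HSP90 of the ER, had 500, 555, 496 and 544 CPM in Control and 587, 531, 578 and 542 in Dox, a change of 0.09 ± 0.05 (FDR = 0.219) with overlapping groups. Without Dox replicate 1, whose deviation is described above, HSPA5 was called (0.13, FDR = 0.0306), as it was by DESeq2 (adjusted p = 0.0330), and 15 members were called, 14 of them higher (35.9%, against 14.3% of 13596 genes called higher). Without Dox replicate 2 the count was 17, with 16 higher (41%, against 15% of 13591 genes).

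Among ERAD genes in Tet-MIST1, 4 of 9 rose (against 11.9% of all genes) and none fell (against 8.77%). DERL2 (Derlin-2), a channel protein of the ER membrane, had 52.5, 56.4, 53.7 and 54.9 CPM in Control and 75.9, 61.1, 67.1 and 65.1 in Dox. The groups did not overlap, Dox replicate 1 was the highest, and the change was 0.31 ± 0.06 (FDR = 0.00645) with it and 0.25 without it. HERPUD1, a membrane partner of the ubiquitin ligase SYVN1, had 21.3, 21.5, 21.4 and 23.6 CPM in Control and 27.7, 27.0, 25.2 and 25 in Dox. All Dox libraries were above Control, a change of 0.26 ± 0.06 (FDR = 0.00916). That call was lost with all 24 libraries in one fit (FDR = 0.143). SYVN1 (HRD1) itself rose by 0.25 ± 0.06 (FDR = 0.00965) and OS9, a lectin that hands glycoproteins to it, by 0.23 ± 0.04 (FDR = 0.00247). SEL1L, the adaptor that holds SYVN1 and OS9 together, had 68.6, 69.9, 68.3 and 63.3 CPM in Control and 58.3, 71.0, 69.1 and 66.2 in Dox, overlapping groups with a change of −0.03 ± 0.06 (FDR = 0.752).

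Of the 7 sensors and factors in Tet-MIST1, EIF2AK3 (PERK), the kinase that slows translation under ER stress, was called and no other was. Of all genes in this line, 20.6% were called. EIF2AK3 (hg19 chr2:88856259-88927094, minus strand) had 16.7, 17.6, 16.9 and 16.1 CPM in Control and 21.7, 22.1, 21.3 and 21.4 in Dox. All Dox libraries were above all Control libraries, a change of 0.36 ± 0.05 (FDR = 0.000516), and the call held in all 8 fits that left out a library. XBP1 had 34.2, 36.2, 33.7 and 36.2 CPM in Control and 40.2, 36.4, 37.1 and 37.7 in Dox. The groups did not overlap but the change, 0.11 ± 0.05, did not pass the threshold (FDR = 0.136). ATF6 had 63.6, 65.2, 63.6 and 60.6 CPM in Control and 58.1, 66.3, 66.0 and 62.5 in Dox, a change of −0.0011 ± 0.05 (FDR = 0.991). ERN1, at 6.03, 4.59, 5.36 and 4.36 CPM in Control and 1.86, 5.22, 4.12 and 4.16 in Dox, had a change of −0.41 ± 0.23 (FDR = 0.203), with Dox replicate 1 far below the rest. CREB3L2 (BBF2H7), an ATF6-like factor cut in the Golgi, had 32.1, 30.8, 32.6 and 31.4 CPM in Control and 30.3, 45.9, 38.1 and 40.9 in Dox, a change of 0.29 ± 0.10 (FDR = 0.0560). Dox replicate 1 was the only one below Control, and without it the change was 0.39 (FDR = 8.78e-06). DESeq2 called CREB3L2 with all libraries (adjusted p = 0.0299). The 28 members not called in Tet-MIST1 ran from −0.41 (ERN1) to 0.29 (CREB3L2).

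In Tet-PTF1a, 28 members were called with Dox (71.8%, against 48.2% of 14053 genes). Of these, 25 rose (64.1%, against 23.8% called higher) and 3 fell (7.69%, against 24.4% called lower). The median change was 0.16, against 0.0014 over all genes. By group, 14 of 23 folding genes rose and 2 fell, 7 of 9 ERAD genes rose, and 4 of 7 sensors and factors rose and 1 fell. All 4 Dox libraries lay above all 4 Control libraries for 26 members (66.7%), against 20.8% of all genes, and below them for 2 (5.13%), against 21.4%. At least 0.2 in size on the log2 scale were 15 of the rises and 2 of the falls, and the share of all genes at that limit was not counted. With all 24 libraries in one fit, which shares one estimate of the spread over the lines, 14 members rose (35.9%, against 10.7% of 13526 genes) and 2 fell (5.13%, against 12.5%). The calls lost there were those of HSP90B1, PDIA3, PDIA6, P4HB, CALR, SDF2L1, MANF, UGGT1, SEL1L, EDEM1, EDEM2 and DERL2, with an FDR from 0.0564 (EDEM2) to 0.593 (SDF2L1). The summed level of 6 epithelial markers, keratins among them, lay between 3198 and 3380 CPM in Control and between 1440 and 1497 in Dox libraries of this line. The summed level of PDGFRB and COL1A1, the 2 of 4 fibroblast markers listed, lay between 149 and 157 CPM in Control and 63.9 and 66.3 in Dox. That of CD14 and CD68, the 2 of 4 leukocyte markers listed, lay between 63.6 and 69.6 CPM in Control and 31.0 and 35.8 in Dox, and 0 of 3 endothelial markers were listed. The part of these shifts in the results was not tested.

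ERO1LB (hg19 chr1:236378422-236445339, minus strand), whose ERSE is printed above with GRCh38.p14 positions, rose most. It had 27.3, 24.2, 25.8 and 25.2 CPM in Control and 49.3, 50.9, 54.4 and 52.4 in Dox, far apart, a change of 1.01 ± 0.04 (FDR = 4.08e-26) or 2.01-fold. Its paralog ERO1L, the more widely expressed oxidase, moved the other way. ERO1L had 260, 269, 256 and 267 CPM in Control and 229, 227, 228 and 217 in Dox, without overlap, a change of −0.22 ± 0.02 (FDR = 1.93e-11). TXNDC11, a thioredoxin-domain protein of the ER membrane, had 30.1, 31.0, 29.8 and 31.3 CPM in Control and 41.5, 44.5, 41.5 and 42.4 in Dox. The groups did not overlap, and the change was 0.48 ± 0.04 (FDR = 2.34e-14). HYOU1 (GRP170), which exchanges the nucleotide of BiP, rose by 0.44 ± 0.02 (FDR = 8.21e-24), DNAJB11 (ERdj3), a soluble J protein, by 0.39 ± 0.03 (FDR = 9.16e-19) and MANF, a secreted UPR protein that binds BiP, by 0.33 ± 0.04 (FDR = 4.15e-10).

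BiP and GRP94 rose in Tet-PTF1a by small amounts with little spread. HSPA5 had 611, 565, 552 and 563 CPM in Control and 673, 681, 676 and 688 in Dox, without overlap, a change of 0.25 ± 0.02 (FDR = 2.53e-11). HSP90B1 had 884, 908, 907 and 862 CPM in Control and 1020, 987, 1010 and 1010 in Dox, also without overlap, a change of 0.18 ± 0.02 (FDR = 1.60e-10). The other risers among folding genes were the disulfide isomerases PDIA4 (0.20), PDIA3 (0.11) and PDIA6 (0.09), the J protein DNAJC3 (0.22), the BiP partner SDF2L1 (0.19), the glycoprotein folding sensor UGGT1 (0.16) and CALR (0.11). P4HB had 881, 867, 892 and 880 CPM in Control and 841, 847, 825 and 867 in Dox, a fall of 0.06 on the log2 scale (SE 0.02, FDR = 0.0132) with overlapping groups. That call was lost with library size in place of TMM scaling (FDR = 0.392) and without Dox replicate 3 (FDR = 0.0729). DNAJC1 had 14.1, 14.7, 14.8 and 13.7 CPM in Control and 16, 14.3, 16.9 and 15.1 in Dox, a change of 0.12 ± 0.06 (FDR = 0.0897). FKBP14 had 52.9, 56.6, 55.2 and 51.8 CPM in Control and 51.5, 51.6, 53.9 and 50.4 in Dox, overlapping groups with a change of −0.06 ± 0.04 (FDR = 0.201). DNAJC10, the faller of Tet-MIST1, had 318, 315, 316 and 311 CPM in Control and 337, 319, 323 and 316 in Dox, a change of 0.04 ± 0.02 (FDR = 0.146).

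The ERAD genes that rose in Tet-PTF1a included the adaptor SEL1L and the mannosidases that mark misfolded glycoproteins. SEL1L had 174, 175, 165 and 166 CPM in Control and 213, 203, 210 and 192 in Dox, without overlap, a change of 0.26 ± 0.03 (FDR = 2.52e-10). EDEM3 rose by 0.30 ± 0.03 (FDR = 7.40e-11), EDEM1 by 0.13 and EDEM2 by 0.13. SYVN1 rose by 0.21, OS9 by 0.16, and DERL2, at 40.5, 39.3, 39.3 and 40.1 CPM in Control and 44.4, 48.3, 45.1 and 46.0 in Dox, by 0.21 ± 0.04 (FDR = 9.60e-06). HERPUD1 had 46.2, 34.0, 32.3 and 32.6 CPM in Control and 30.4, 32.8, 29.5 and 33.3 in Dox. Its change of −0.22 ± 0.15 did not pass the threshold (FDR = 0.266), and Control replicate 1 stood well above the other Control libraries. Without it the change was −0.05 (FDR = 0.386).

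The sensor group had the largest ratio of summed Dox to Control level in Tet-PTF1a, 1.27, against 1.08 for the folding genes and 1.12 for ERAD. Its 7 genes summed to 370 ± 13.9 CPM in Control and 471 ± 8.97 in Dox (SD, n = 4). XBP1 alone had a mean of 52.1 CPM in Control and 102 in Dox. In CPM the folding genes gained more, from 7628 in Control to 8273 in Dox. XBP1 (hg19 chr22:29190548-29196560, minus strand), the factor made active by ERN1, had 61.6, 49.0, 48.1 and 49.8 CPM in Control and 94.4, 103, 103 and 107 in Dox. Every Dox library was above every Control library, a change of 0.95 ± 0.09 (FDR = 0.000163) or 1.93-fold. ERN1 itself had 9.38, 8.18, 6.55 and 6.19 CPM in Control and 8.61, 9.19, 7.98 and 7.64 in Dox, overlapping groups with a change of 0.11 ± 0.13 (FDR = 0.510). Without Control replicate 1 that change was 0.29 and passed the threshold (FDR = 0.00887), and without Control replicate 4 it was −0.0017 (FDR = 0.991). ATF6 had 76.1, 68.1, 68.1 and 68.3 CPM in Control and 98.7, 97.4, 97.8 and 96.0 in Dox, without overlap, a change of 0.47 ± 0.03 (FDR = 4.57e-17). EIF2AK3 had 27.2, 30.6, 29.6 and 27.6 CPM in Control and 37.6, 35.1, 36.2 and 37.9 in Dox, also apart, a change of 0.37 ± 0.04 (FDR = 7.72e-10). CREB3L2 had 51.4, 52.1, 52.6 and 51.8 CPM in Control and 81.3, 85.1, 83.0 and 85.6 in Dox, a change of 0.69 ± 0.03 (FDR = 1.47e-24). WFS1 (wolframin), an ER membrane protein that restrains ATF6, fell most of all members. It had 56.0, 54.5, 57.0 and 58.7 CPM in Control and 42.6, 40.4, 39.7 and 39.7 in Dox, without overlap, a change of −0.49 ± 0.04 (FDR = 4.57e-16). The 11 members not called in Tet-PTF1a ran from −0.22 (HERPUD1) to 0.12 (DNAJC1).

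**Figure D2:**
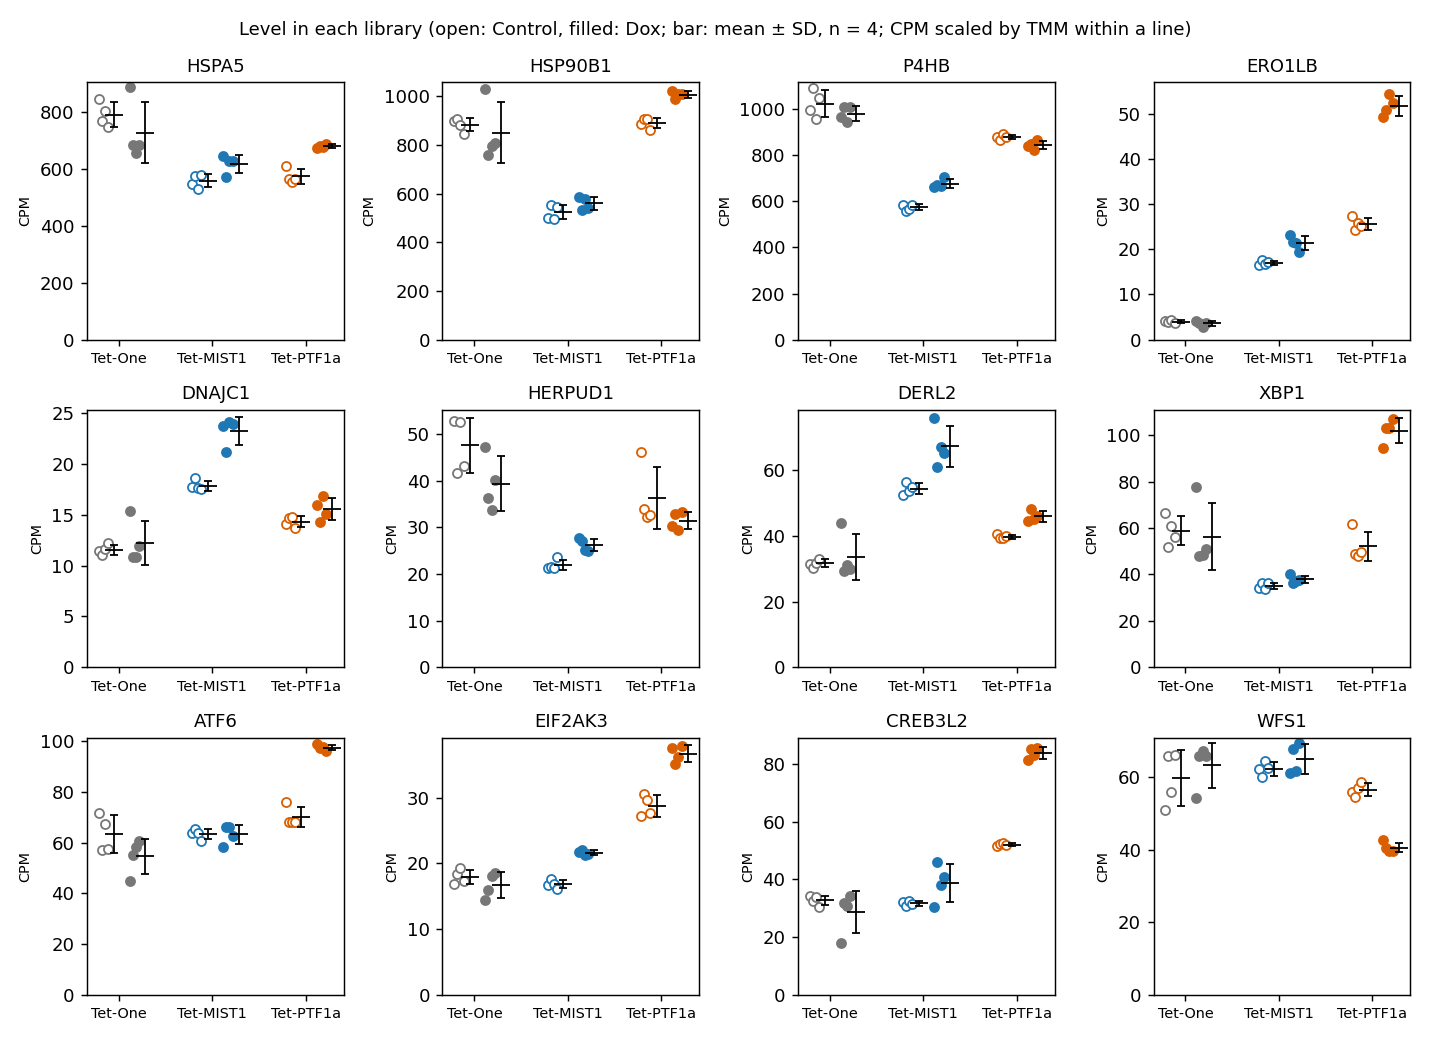
Level of 12 members in each library (CPM scaled by TMM within a line, axis from 0), with open points for Control, filled points for Dox and bars for mean ± SD (n = 4). XBP1, ATF6, CREB3L2 and ERO1LB were higher in every Dox library of Tet-PTF1a, WFS1 was lower, and Tet-One Dox replicate 1 stood apart for HSPA5 and XBP1.

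**Figure D3:**
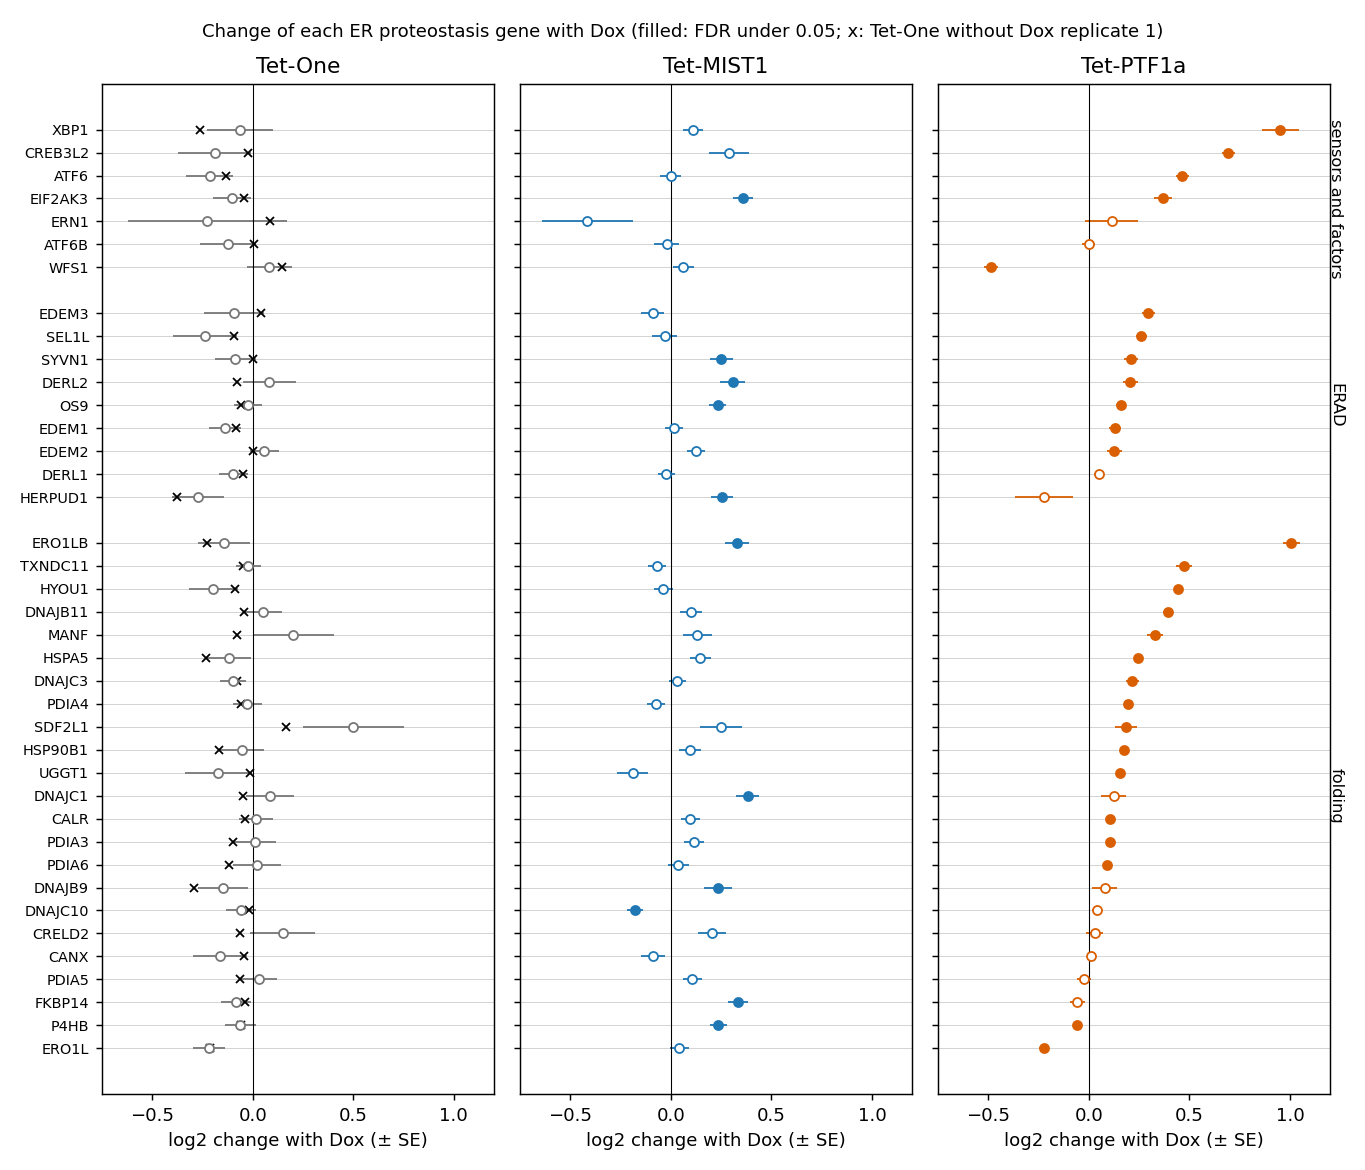
Log2 change with Dox (± SE) of all 39 members in each line, grouped as folding, ERAD and sensor genes and ordered by Tet-PTF1a, with filled points where the FDR was under 0.05 and crosses for Tet-One without Dox replicate 1. Tet-One has 0 filled points, Tet-MIST1 has 11 and Tet-PTF1a has 28.

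The calls of the induced lines were set beside those of all 13303 genes tested in both, as a description. A set of 5 members rose in both lines: ERO1LB, EIF2AK3, SYVN1, DERL2 and OS9 (12.8%, against 3.26% of all genes). Called higher in Tet-MIST1 and not called in Tet-PTF1a were DNAJB9, DNAJC1, FKBP14 and HERPUD1 (10.3%, against 5.76%). Another 20 members were called higher in Tet-PTF1a and not called in Tet-MIST1 (51.3%, against 18.1%). P4HB rose in Tet-MIST1 and fell in Tet-PTF1a (2.56%, against 2.96%). PDIA5, CANX, CRELD2, DERL1, ATF6B and ERN1 were called in neither line (15.4%, against 41.9%).

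Whether the response to Dox differed between lines was tested by an interaction term, each time with the 16 libraries of the pair. Between Tet-PTF1a and Tet-MIST1, 13 members responded more positively in Tet-PTF1a (33.3%, against 17.8% of 13526 genes) and 6 less (15.4%, against 18.6%). The difference was 0.86 ± 0.09 for XBP1 (FDR = 2.10e-07), 0.69 ± 0.08 for ERO1LB (FDR = 4.13e-07), 0.56 ± 0.06 for TXNDC11 (FDR = 1.24e-07) and 0.49 ± 0.05 for HYOU1 (FDR = 1.12e-07). ATF6, DNAJB11, DNAJC3, DNAJC10, PDIA4, UGGT1, SEL1L, EDEM3 and CREB3L2 were the others that responded more in Tet-PTF1a. Over the 16 fits that left out a library, the difference ran from 0.32 to 0.50 for CREB3L2. It ran from 0.28 to 0.41 for UGGT1 and from 0.25 to 0.34 for SEL1L, and these 3 calls held in all 16. With the trend of exon length removed, the differences of DNAJC10 (0.23) and DNAJC3 (0.20) came to 0.11 each and lost the call (FDR = 0.0660 and 0.129), and those of UGGT1 (0.36) and SEL1L (0.31) came to 0.22 and 0.17 and kept it. The 6 with the lower response in Tet-PTF1a were WFS1 (−0.53), HERPUD1 (−0.46), FKBP14 (−0.38), P4HB (−0.28), ERO1L (−0.25) and DNAJC1 (−0.25). Without Tet-PTF1a Control replicate 1, in which HERPUD1 stood high, the difference of HERPUD1 was −0.30 (FDR = 0.00563). The call of DNAJC1 was lost with the length trend removed (FDR = 0.0928) and with a replicate block (FDR = 0.0525). EIF2AK3 changed by 0.36 in Tet-MIST1 and 0.37 in Tet-PTF1a, a difference of 0.01 ± 0.07 (FDR = 0.891).

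**Figure D4:**
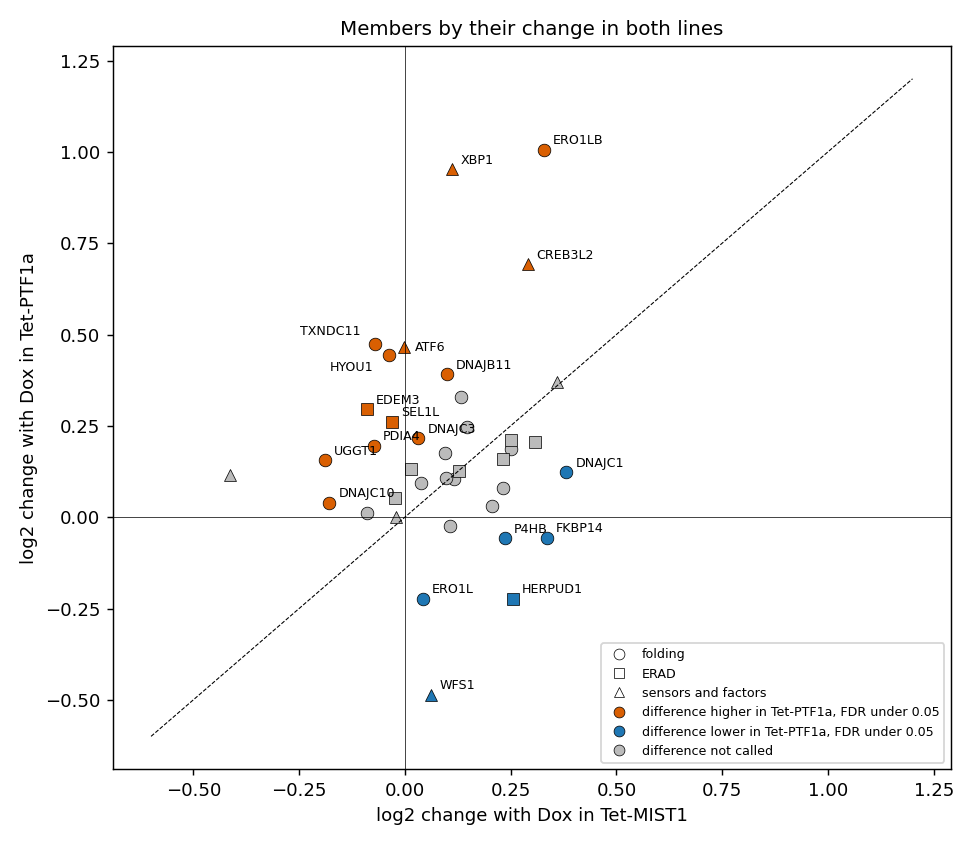
Log2 change with Dox of each member in Tet-MIST1 (x axis) and Tet-PTF1a (y axis), with circles for folding, squares for ERAD and triangles for sensor genes, and the dashed line marking equal changes. Colour marks the 13 members whose difference was higher (orange) and the 6 whose difference was lower (blue) in Tet-PTF1a at an FDR under 0.05.

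The spread between replicates, as edgeR's biological coefficient of variation, was 14.4% for Tet-One, while Tet-MIST1 had 6.58% and Tet-PTF1a 2.80%. A single library set much of the first 2 values, which were 4.79% without Tet-One Dox replicate 1 and 4.11% without Tet-MIST1 Dox replicate 1. Both comparisons with Tet-One share its 8 libraries. Between Tet-MIST1 and Tet-One, FKBP14 (difference 0.41 ± 0.09, FDR = 0.0200) and EIF2AK3 (0.46 ± 0.10, FDR = 0.0346) passed, 2 of 39 members (5.13%, against 1.66% of 13879 genes in either direction and 1.48% higher). With a replicate block, 0 members passed, and at an unadjusted p under 0.05 without the block there were 12 higher and 0 lower, where 11.4% of all genes reached that limit in either direction. The call of FKBP14 held in 13 of 16 fits that left out a library and that of EIF2AK3 in 6 of 16. Without Tet-One Dox replicate 1 there were 16, all higher (41%, against 8.5% of all genes called higher and 5.4% lower). Such a difference can hold a rise in Tet-MIST1, a fall in Tet-One, or both. In Tet-MIST1 and in Tet-One without that library, ERO1L changed by 0.04 and −0.21 and XBP1 by 0.11 and −0.26. HSPA5 changed by 0.15 and −0.23, EIF2AK3 by 0.36 and −0.04, and FKBP14 by 0.33 and −0.04. No member was called in Tet-One in that fit. Between Tet-PTF1a and Tet-One, 12 members responded more (30.8%, against 5.52% of 13526 genes) and WFS1 less (2.56%, against 7.36%). The 12 were HSPA5, DNAJB11, DNAJC3, PDIA4, HYOU1, ERO1LB, TXNDC11, EDEM1, XBP1, ATF6, EIF2AK3 and CREB3L2, led by ERO1LB (1.15 ± 0.13, FDR = 1.46e-05) and XBP1 (1.03 ± 0.19, FDR = 0.00175). The calls of HSPA5 (2 of 16 fits that left out a library), PDIA4 (2), EDEM1 (5) and DNAJB11 (7) often did not hold. Without Tet-One Dox replicate 1, 24 members responded more (61.5%, against 14.6%) and 1 less (2.56%, against 16.1%), together 64.1% of members against 30.7% of all genes.

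Members were also grouped by the elements in their promoter windows. The 11 members with an ERSE or ERSE-II had a median change of 0.18 in Tet-PTF1a, with 8 called higher and 0 lower. The 24 with neither also had 0.18, with 16 higher and 3 lower. Of all genes in that line, 23.8% were called higher and 24.4% lower. In Tet-MIST1 the medians were 0.11 and 0.05, with 2 of 11 and 6 of 24 called higher (11.9% of all genes), and 0 and 1 lower (8.77%). In Tet-One without Dox replicate 1 they were −0.12 and −0.05. The 11 members with either E box had medians of 0.04 in Tet-MIST1 and 0.16 in Tet-PTF1a, against 0.11 and 0.18 for the 24 without. These are descriptions of small groups and were not tested.

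Other genes of the same pathways were read from lists of the same kind. Of 34 further folding genes, all tested in each line, 4 rose and 2 fell in Tet-MIST1 (11.8% and 5.88%, against 11.9% and 8.77% of all genes), so the share that rose was close to that of all genes. In Tet-PTF1a 12 rose and 3 fell (35.3% and 8.82%, against 23.8% and 24.4%), and the median change was 0.06 in both lines. The largest called changes were CNPY2 (0.26) and the thioredoxin TMX3 (−0.16) in Tet-MIST1, and ERP44 (0.28), which retains ERO1 in the secretory pathway, and TMX4 (−0.18) in Tet-PTF1a. Of 29 further ERAD genes, 28 were listed. In Tet-MIST1, 27 of them were tested, and 5 rose (18.5%, against 11.9% of all genes), most of all VIMP (0.43), a selenoprotein bound to Derlins. NPLOC4 (−0.15) fell (3.70%, against 8.77%). In Tet-PTF1a, 28 were tested, and 12 rose (42.9%, against 23.8%), with UBXN8 (0.25) the most, and 3 fell (10.7%, against 24.4%). Of 13 further genes of the sensor group, 11 were listed. In Tet-MIST1 2 rose (18.2%, against 11.9%), with CREB3L1 (0.68), a relative of CREB3L2, the most, and 0 fell (against 8.77%). In Tet-PTF1a 0 rose (against 23.8%) and 3 fell (27.3%, against 24.4%), with CREB3L4 (−0.36) the most. That share of falls was close to that of all genes. None of these genes was called in Tet-One.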

How the data were processed

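RNA-seq of 24 libraries was used (3 lines, 4 Control and 4 Dox each). Per the study's methods and processing notes, the authors used TopHat to align paired-end HiSeq reads to hg19 and deposited raw read counts per gene in 1 table per line, keeping genes above 0.5 CPM in at least 4 libraries. The labels also name HTSeq, DESeq and edgeR. Whether counting used strand is not given in the sources used here, so overlapping genes on opposite strands may share reads. The authors' own CPM columns and their fold change and p-value columns were not used.

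From the counts, each line was fitted with edgeR 4.0.16 in R 4.3.3 (TMM scaling, robust quasi-likelihood test of Dox against Control, genes above 0.5 CPM in at least 4 libraries, Benjamini-Hochberg FDR under 0.05 over all genes). The difference between lines was the interaction of line and Dox over 16 libraries. A count of members with no overlap compares single libraries. Levels are TMM-scaled CPM within a line, or RPKM from a joint scaling and the listed exon length. Library totals ran from 17210989 to 43018494 counts. Alternatives were scaling by upper quartile or by library size, DESeq2 1.42.0, no filter, at least 10 counts in every library, a replicate block, removal of a length trend, one fit of all 24 libraries, a log2 change of at least 0.2, and leaving out each library. The scripts were tested on simulated data. The study's methods call the replicates biological, and p-values measure the spread between them.

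The members and the other gene lists were chosen with earlier results of these data known. Members were named with a log2 change if called in either induced line. Values in every library were given for the 5 largest called rises and falls of Tet-MIST1 and Tet-PTF1a, and for HSPA5, HSP90B1, XBP1, ATF6, ERN1, EIF2AK3, DNAJC1, SEL1L and HERPUD1 for their roles. Of the further pathway genes, the largest called rise and fall of each list were named, except 1 that is not reported here. ERSE-II and the stretch of HYOU1 were added after the values were seen.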

Additional observations from a re-analysis of the deposited data

Results flagged for a closer look

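Single libraries far from the other 3 of their group were found in 10 of the 108 sets of 4 libraries tested (18 members named with values, 3 lines, Control and Dox), where chance gives about 1 in 20. Tet-One Dox replicate 1 was high for HSPA5 (885 CPM), DERL2 (43.9) and XBP1 (77.7) and low for WFS1 (54.1). Tet-PTF1a Control replicate 1 was high for HERPUD1 (46.2 CPM), XBP1 (61.6) and ATF6 (76.1). DNAJC1 was low in Tet-MIST1 Dox replicate 2 (21.2 CPM), ERO1L was low in Tet-PTF1a Dox replicate 4 (217) and HERPUD1 was high in Tet-MIST1 Control replicate 4 (23.6).

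Some members responded to Dox differently in 2 lines by the interaction test (edgeR quasi-likelihood, FDR under 0.05). The differences below are on the log2 scale, first line minus second. Between Tet-MIST1 and Tet-One they were FKBP14 0.412 and EIF2AK3 0.458. Between Tet-PTF1a and Tet-One they were HSPA5 0.366, DNAJB11 0.338, DNAJC3 0.319, PDIA4 0.221, HYOU1 0.638, ERO1LB 1.15, TXNDC11 0.495, EDEM1 0.269, XBP1 1.03, ATF6 0.687, EIF2AK3 0.458, CREB3L2 0.877 and WFS1 −0.564. Between Tet-PTF1a and Tet-MIST1 they were DNAJB11 0.304, DNAJC1 −0.248, DNAJC3 0.2, DNAJC10 0.23, PDIA4 0.28, P4HB −0.283, HYOU1 0.493, ERO1L −0.252, ERO1LB 0.692, UGGT1 0.359, FKBP14 −0.383, TXNDC11 0.557, SEL1L 0.307, HERPUD1 −0.458, EDEM3 0.399, XBP1 0.862, ATF6 0.485, CREB3L2 0.413 and WFS1 −0.532. The first 2 comparisons share the 8 Tet-One libraries.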

How the results depend on the processing

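No member was called in Tet-One under any alternative run. Of the called members and the named members, 13 values turned sign, 104 lost the threshold, 14 gained it and 1603 did neither. The members called in Tet-MIST1 (11) numbered 9 with all 24 libraries in one fit. They numbered 10 to 17 with a library left out, with 17 without Dox replicate 2 (43.6%, against 27.7% of all genes). Those in Tet-PTF1a (28) numbered 16 with all 24 libraries in one fit (41%, against 23.2% of all genes), which shares the spread of Tet-One. They numbered 17 with a log2 change of at least 0.2. The median change in Tet-One was −0.0265 with the length and GC trend removed, an alternative chosen after seeing the data. The median in Tet-PTF1a was 0.19 with library size in place of TMM, 0.14 with the length trend removed, 0.15 with the length and GC trend removed, and 0.14 to 0.17 with a library left out. The members whose response differed between Tet-MIST1 and Tet-One (2, 5.13% against 1.66% of all genes) numbered 6 with DESeq2 and 4 with library size. They numbered 7 with the length trend removed and 8 with the length and GC trend removed. With a library left out they numbered 0 to 16, with 16 without Tet-One Dox replicate 1 (41%, against 13.9% of all genes). The count was 0 without Tet-MIST1 Control replicate 1, Tet-MIST1 Control replicate 4 or Tet-One Control replicate 3. It was 1 without any Tet-MIST1 Dox replicate, Tet-MIST1 Control replicate 3, Tet-One Control replicate 2 or Tet-One Dox replicate 2. Those whose response differed between Tet-PTF1a and Tet-One (13) numbered 9 to 25, with 25 without Tet-One Dox replicate 1 (64.1%, against 30.7% of all genes). The cause of these shifts was not tested. For the other alternatives the share of all genes called was not counted. Their counts cannot tell a change of the members from a change of all genes. Small changes turned sign: SEL1L in Tet-MIST1 (−0.03) was 0.0872 with the length trend and 0.0549 with the length and GC trend removed, and −0.0618 to 0.0271 with a library left out. ATF6 in Tet-MIST1 was 0.106 and 0.0880 under the same removals, 0.00363 with all 24 libraries in one fit, and −0.0217 to 0.0391 with a library left out. DNAJC10 in Tet-PTF1a (0.04) was −0.00237 with the length and GC trend removed. ERN1 in Tet-PTF1a (0.11) was −0.00169 to 0.286 with a library left out. Replicate numbers did not pair the samples (correlation of same-numbered deviations −0.24 to 0.18, with 1 of 12 samples closest to its own number). With a replicate block, 0 members differed in response between Tet-MIST1 and Tet-One, 9 were called in Tet-MIST1 and 28 in Tet-PTF1a. Replicate pairs differed by more than counting noise, with a chi-square per degree of freedom of 1.38 to 236 over 36 pairs.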

Other observations

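Genes of the same pathways did not all move with the members. Among the further sensor genes, the median change was −0.02 in Tet-MIST1 and −0.03 in Tet-PTF1a, and among the further ERAD genes it was 0.07 and 0.08. Summed over all 39 members, Dox libraries held 0.954 times the Control level in Tet-One, 1.05 times in Tet-MIST1 and 1.10 times in Tet-PTF1a.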
